A study of Mus musculus with 8 samples.

Results

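The genes described here are 43 genes of antigen presentation and the interferon response, read from RNA sequencing of neonatal mouse testes. They were chosen by name: a row of the deposited table belonged to the set when its gene symbol was on a list of class I, class II, immunoproteasome, interferon factor and interferon-induced genes. All 43 were found among 24499 gene symbols. The best expressed transcript stood for each gene. A mean of 1 RPKM or more in at least 1 group was reached by 36 of them and by 15821 genes in the whole table, and counts refer to genes above that level unless stated. RPKM values correct read numbers for the length of a transcript and the size of a library, so levels of different genes can be compared.

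The 2 groups were 4 testes labelled Dio3KO and 4 WT testes. All came from mice of the 129/SVJ background at postnatal day 5. The product of Dio3 is an enzyme that breaks down active thyroid hormone, and the series title names thyroid hormone action in the neonatal testis as its subject. How Dio3 was altered, in which cells, and whether a sample was 1 animal are not stated in the labels. The deposited values were each group's mean RPKM and its coefficient of variation (CV, the SD over the mean), with no value per testis, so overlap between single samples cannot be given. Sequencing depth is unknown. Unless limma is named, each adjusted p comes from the authors' deposited table, and "rose" or "fell" is used only where that p was below 0.05.

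Dio3 itself was at 2.95 RPKM in Dio3KO-labelled testes (CV 0.29) and 0.52 RPKM in WT testes (CV 0.20), for which the authors' deposited table gave an adjusted p of 0.0408. The targeted gene was therefore higher where a knockout was labelled, and every direction below rests on the labels. The extraction text names hypothalami although the tissue is given as testis. Sertoli cell markers summed to 792 RPKM in Dio3KO-labelled testes and 808 RPKM in WT testes over 9 genes, of which 2 rose and 5 fell. The sums hide opposite changes. Cldn11 was at 300 RPKM in Dio3KO-labelled and 83.6 RPKM in WT testes, and Amh at 127 RPKM in Dio3KO-labelled and 284 RPKM in WT testes. Over the same groups, 12 markers of hypothalamic neurons summed to 4.81 RPKM in Dio3KO-labelled and 7.67 RPKM in WT testes. Erythroid markers varied widely within the WT group, with CVs over 6 genes of 0.16 to 0.66 in Dio3KO-labelled testes and 0.48 to 1.54 in WT testes.

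Cells show fragments of their proteins to T cells on histocompatibility molecules. Class I molecules, found on nearly all nucleated cells, carry peptides that the proteasome cuts and the TAP transporter moves into the endoplasmic reticulum. Class II molecules, which are found mainly on macrophages, dendritic cells and B cells, carry peptides from ingested material. Interferons bind cell surface receptors, activate STAT proteins and interferon regulatory factors, and switch on antiviral genes together with much of the class I pathway. In the testis, macrophages lie in the interstitium beside Leydig cells, and germ cells are known for low class I expression.

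Of the 36 genes at 1 RPKM or more, 10 rose, 2 fell and 24 did not pass in the authors' deposited table. Over all 15821 genes at this level, 13.8% rose and 15.8% fell. The genes that rose were Tapbp, Psmb8, Irf7, Irf8, Irf9, Stat2, Ifitm3, Gbp3, Ifih1 and Ddx58, and those that fell were Bst2 and Ifitm2. Ifit3 also rose but was below 1 RPKM in both groups. The median log2 ratio of the 36 genes was 0.30, with 28 ratios above 0 and 8 below, against a median of -0.05 over all genes at this level. The number above 0 was 33 with the groups rescaled to the same total and 32 with ratios centred on the median gene. In whole testis, a change in the number of cells of a type and in the RNA per cell cannot be told apart. Ratios are of Dio3KO-labelled over WT means, each with 0.5 RPKM added, a scale that understates the change of low genes. The values closest to the threshold were those of Gbp3 (0.0455) and Psmb8 (0.0464) inside it and H2-K1 (0.0535) and Psmb9 (0.0536) outside it, all in the authors' deposited table. A moderated limma test pooled the spread across genes on the log2 scale, with each gene's spread approximated from the rounded group CVs. It called 17 of the 36 higher and 2 lower by Benjamini-Hochberg adjusted p, where it called 18.5% of all genes higher and 23.1% lower. Of the 10 that rose, 9 were among those 17, and Stat2 was the exception with a limma adjusted p of 0.0909.

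**Figure D1:**
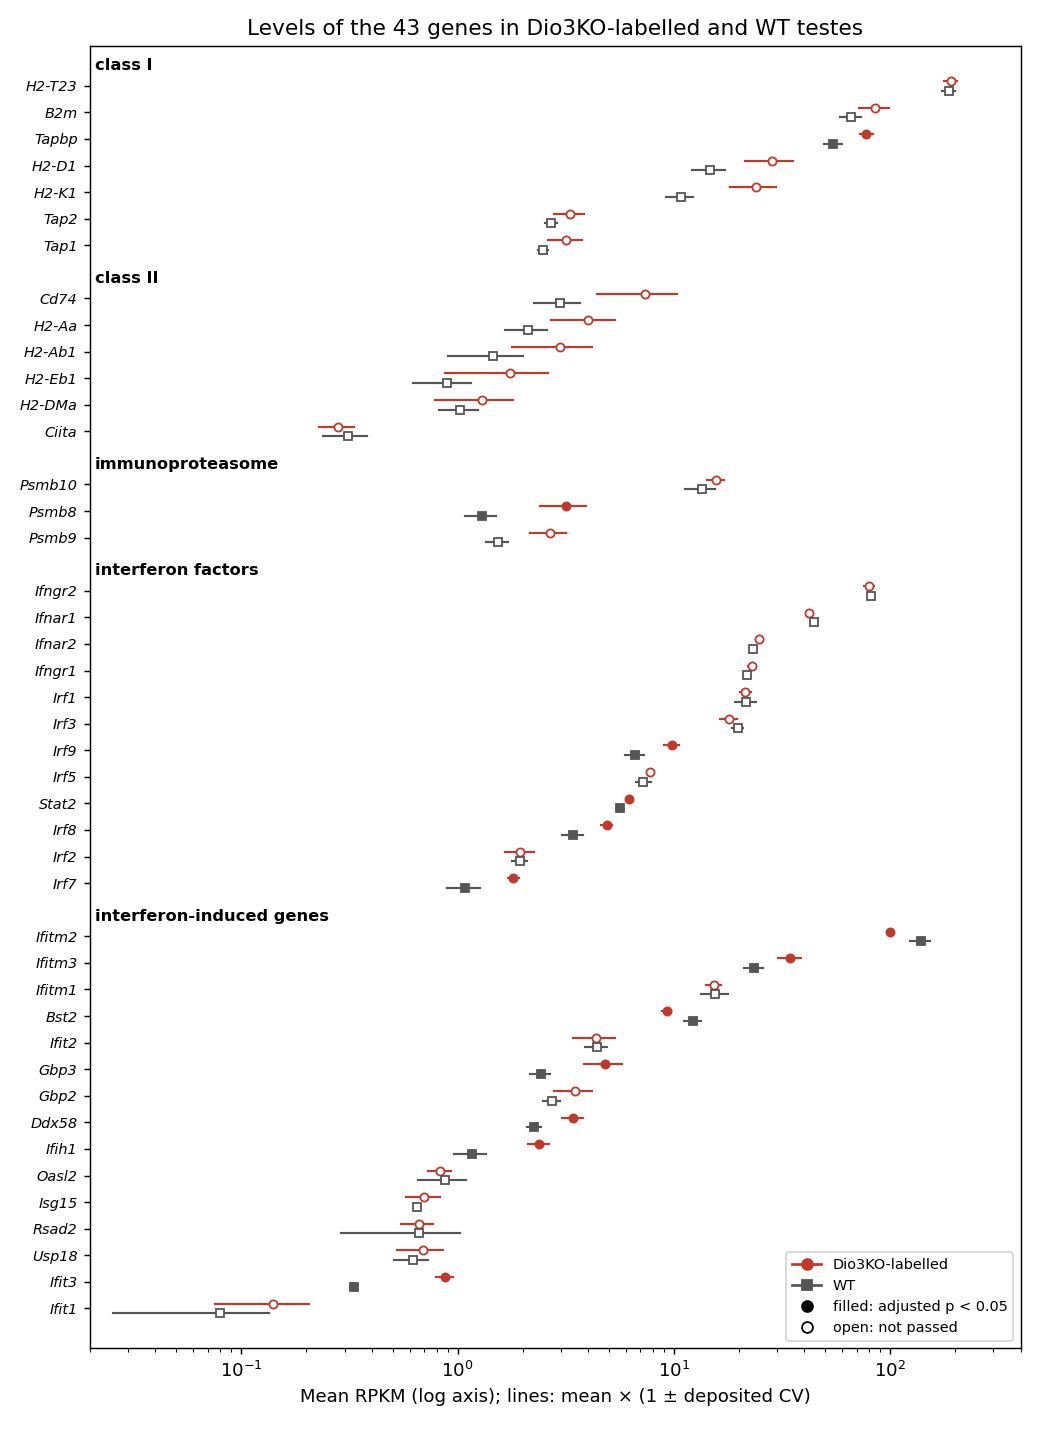
Mean RPKM of the 43 genes on a log axis, with red circles for Dio3KO-labelled testes above grey squares for WT testes. Lines span the mean times 1 plus or minus the deposited CV, and filled symbols mark genes past the 0.05 threshold of the authors' deposited table. H2-T23 was the best expressed gene, at 190 RPKM in Dio3KO-labelled and 187 RPKM in WT testes, and Ifit1 the lowest, at 0.14 RPKM in Dio3KO-labelled and 0.08 RPKM in WT testes.

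The 7 class I genes all had ratios above 0, and 1 of them rose. Over all genes at 1 RPKM or more, 13.8% rose. Tapbp encodes tapasin, which holds class I molecules at the peptide transporter while they load. Its mean was 77.5 RPKM in Dio3KO-labelled testes (CV 0.07) and 54.6 RPKM in WT testes (CV 0.10), for which the authors' deposited table gave an adjusted p of 0.0124. The log2 ratio was 0.50 ± 0.09 (SE, from the CVs), and the difference between the means was 4.20 times the larger of the groups' SDs. Both transcripts of Tapbp rose.

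The classical class I heavy chains H2-K1 and H2-D1 showed larger ratios with more spread. H2-K1 was at 23.9 RPKM in Dio3KO-labelled testes (CV 0.24) and 10.7 RPKM in WT testes (CV 0.14), a log2 ratio of 1.12 ± 0.20 (SE, from the CVs), for which the authors' deposited table gave an adjusted p of 0.0535. H2-D1 was at 28.5 RPKM (CV 0.25) in Dio3KO-labelled and 14.7 RPKM (CV 0.17) in WT testes, with a log2 ratio of 0.94 ± 0.21 (SE, from the CVs), for which the authors' deposited table gave an adjusted p of 0.0696. The gap between the means was 2.30 times the larger SD for H2-K1 and 1.95 times for H2-D1. Of the 4 listed transcripts of H2-K1, 2 rose, with adjusted p of 0.0499 and 0.0464 in the authors' deposited table, while the best expressed one did not pass. The limma adjusted p-values were 0.000596 for H2-K1 and 0.0032 for H2-D1. Class I genes are close paralogs, and how reads shared between them were assigned is not given in the sources used here, so their separate values are uncertain.

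B2m encodes beta-2-microglobulin, the light chain of every class I molecule. It was at 85.1 RPKM in Dio3KO-labelled testes (CV 0.16) and 66.1 RPKM in WT testes (CV 0.11), for which the authors' deposited table gave an adjusted p of 0.1244. The non-classical heavy chain gene H2-T23, whose product presents leader peptides of other class I chains to natural killer cell receptors, was at 190 RPKM in Dio3KO-labelled testes (CV 0.07) and 187 RPKM in WT testes (CV 0.07). Its adjusted p was 0.658 in the authors' deposited table, and its level exceeded those of H2-K1 and H2-D1 in both groups. The transporter subunits Tap1 and Tap2 were low, at 3.18 and 3.32 RPKM in Dio3KO-labelled testes and 2.48 and 2.71 RPKM in WT testes, and did not pass. The log2 ratios were 0.36 ± 0.14 for B2m and 0.03 ± 0.07 for H2-T23 (SE, from the CVs). The limma test called B2m and Tap1 higher, with adjusted p of 0.0257 and 0.0414, but not H2-T23 or Tap2.

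Class II genes were the subgroup with the highest median ratio, and none of them passed. Of 6 genes, 5 reached 1 RPKM, all 5 had ratios above 0, and their median log2 ratio was 0.79. At this level 13.8% of all genes rose and 15.8% fell, so few of 5 genes would pass at those shares. Cd74, the invariant chain that guides class II molecules to endosomes, was at 7.34 RPKM in Dio3KO-labelled testes (CV 0.40) and 2.98 RPKM in WT testes (CV 0.24). Its log2 ratio of 1.17 ± 0.31 (SE, from the CVs) came with an adjusted p of 0.1228, which the authors' deposited table lists above the threshold. H2-Aa, which encodes the alpha chain of the A molecule, was at 4.02 RPKM (CV 0.33) in Dio3KO-labelled testes and 2.12 RPKM (CV 0.22) in WT testes, for which the authors' deposited table gave an adjusted p of 0.1219. Its partner H2-Ab1 was at 2.98 RPKM (CV 0.40) in Dio3KO-labelled and 1.46 RPKM (CV 0.38) in WT testes, and H2-Eb1, a beta chain, at 1.75 RPKM (CV 0.50) in Dio3KO-labelled and 0.89 RPKM (CV 0.30) in WT testes. For these 4 genes the difference between the means was 0.983 to 1.49 times the larger SD, a smaller multiple than for any gene that passed.

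The remaining class II genes differed less. H2-DMa, part of the editor that helps peptides exchange on class II molecules, was at 1.29 RPKM in Dio3KO-labelled testes (CV 0.39) and 1.03 RPKM in WT testes (CV 0.20). Ciita, the coactivator that class II genes require, was listed at 0.28 RPKM in Dio3KO-labelled testes (CV 0.18) and 0.31 RPKM in WT testes (CV 0.23), for which the authors' deposited table gave an adjusted p of 0.4551. All 6 of its transcripts had lower means in the Dio3KO-labelled group, by at most 0.07 on the log2 scale, and none passed. The limma test called Cd74, H2-Aa and H2-Ab1 higher, with adjusted p of 0.0068, 0.0109 and 0.0324. Their CVs were large, where a log2 spread approximated from CVs is least exact. Summed over the 6 genes, class II levels were 17.7 RPKM in Dio3KO-labelled testes and 8.79 RPKM in WT testes, a ratio of 2.01.

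**Figure D2:**
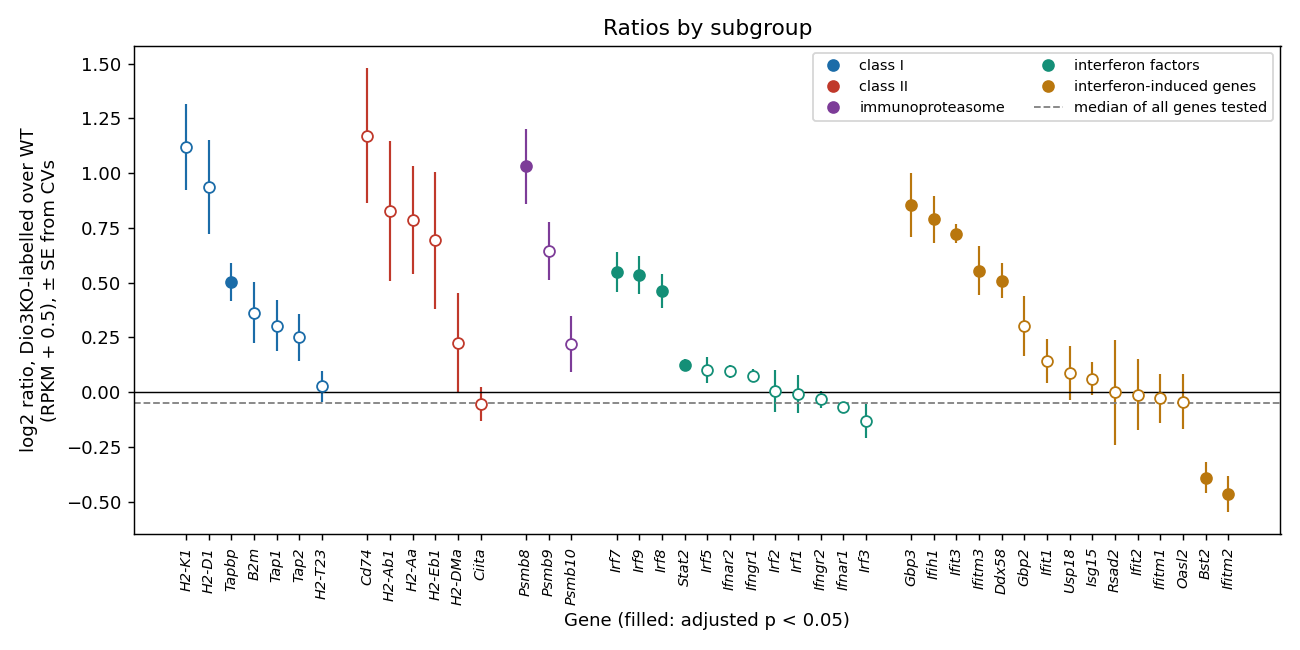
Log2 ratios of the 43 genes, Dio3KO-labelled over WT with 0.5 RPKM added, ordered by size within each subgroup. Vertical lines are the SE computed from the deposited CVs, filled symbols passed the authors' test, and the dashed line is the median of all genes at 1 RPKM or more, -0.05. Cd74, H2-Ab1, H2-Aa and H2-Eb1 have ratios of 0.69 to 1.17 with long bars, H2-DMa is at 0.23 and Ciita at -0.05, and the genes that passed include several with smaller ratios than those 4 and short bars.

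Most macrophage markers rose. Of 20 markers in the table, 17 rose, 0 fell and 3 did not pass, with no filter on low values and none listed at 0 in either group. Their summed level was 225 RPKM in Dio3KO-labelled testes and 113 RPKM in WT testes, a ratio of 1.99. Of the 19 markers at 1 RPKM or more, 16 rose, against 13.8% of all genes at this level. Csf1r, the receptor for macrophage growth factor, rose to 15.9 RPKM (CV 0.08) in Dio3KO-labelled testes, against 7.85 RPKM (CV 0.10) in WT testes, for which the authors' deposited table gave an adjusted p of 0.005. Fcer1g, which encodes a signalling chain of antibody receptors, also rose (10.4 RPKM in Dio3KO-labelled and 5.55 RPKM in WT testes), while Lyz2 (41.2 RPKM in Dio3KO-labelled and 24.2 RPKM in WT testes) did not pass. The part of macrophage content in the class I and class II values was not tested.

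Markers of other antigen-presenting cells were mostly low. Among 8 dendritic cell markers, 3 reached 1 RPKM and 2 of these fell, where 15.8% of all genes at this level fell. Those 2 were Zbtb46 (17.5 RPKM in Dio3KO-labelled and 20.8 RPKM in WT testes) and Batf3 (1.82 RPKM in Dio3KO-labelled and 2.40 RPKM in WT testes). Xcr1 (3.61 RPKM in Dio3KO-labelled and 3.79 RPKM in WT testes) did not pass. The defining markers Itgax, Flt3 and Clec9a were at 0.12, 0.30 and 0.05 RPKM in Dio3KO-labelled testes and 0.07, 0.49 and 0.08 RPKM in WT testes, and of these Itgax rose. Siglech and Ccr7, also below 1 RPKM, had ratios above 0 and did not pass. Over all 8 dendritic cell markers, 3 ratios were above 0 and 5 below. Zbtb46 was far above Itgax, Flt3 and Clec9a in level, and which cells it came from was not tested. Of 12 lymphocyte markers, 0 passed, 11 had ratios above 0, and their sum was 5.44 RPKM in Dio3KO-labelled testes and 2.84 RPKM in WT testes. The best expressed of them was the B cell gene Cd79b, at 1.75 RPKM (CV 0.22) in Dio3KO-labelled and 0.95 RPKM (CV 0.47) in WT testes. Endothelial cells also express class I and interferon-induced genes, and 8 of 12 endothelial markers rose, their sum being 125 RPKM in Dio3KO-labelled testes and 94.9 RPKM in WT testes. All 12 were at 1 RPKM or more, a level at which 13.8% of all genes rose. The junction gene Cldn5 (13.3 RPKM in Dio3KO-labelled and 7.29 RPKM in WT testes) rose and Cdh5 (24.4 RPKM in Dio3KO-labelled and 23.5 RPKM in WT testes) did not pass. The part of dendritic cell, lymphocyte or endothelial content in these results was not tested.

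**Figure D3:**
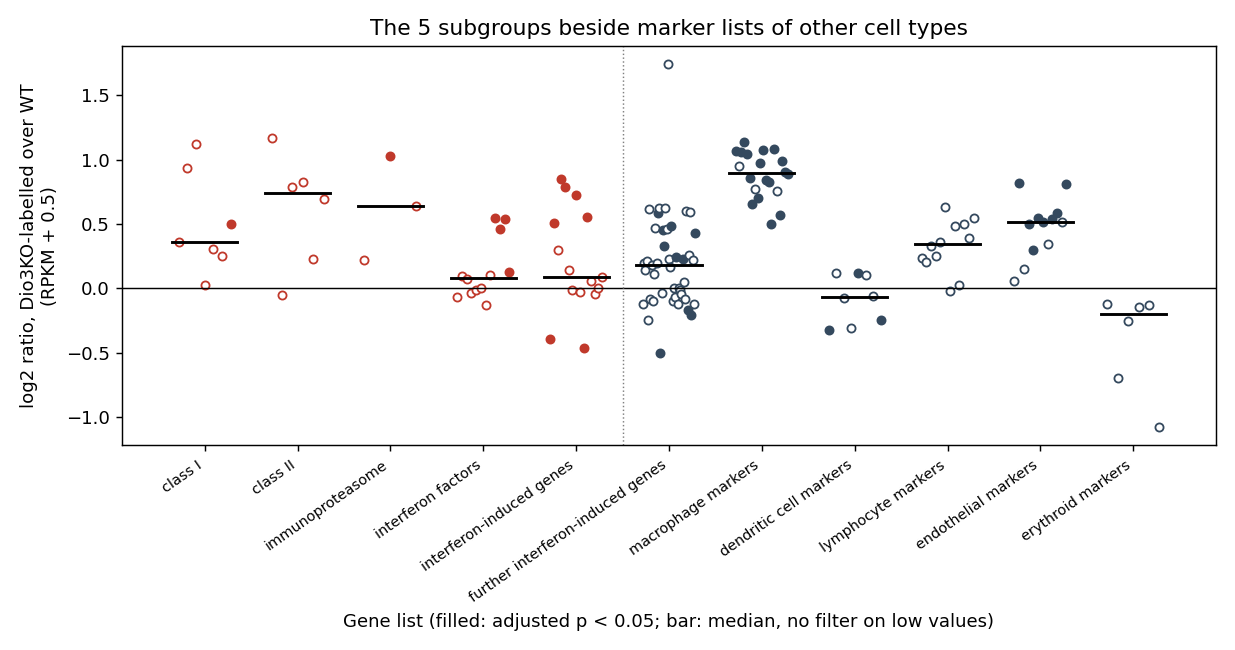
Log2 ratios of each gene in the 5 subgroups (red, left of the dotted line) beside a second list of interferon-induced genes and marker lists of other cell types (dark blue). Filled circles passed the authors' test, bars are medians with no filter on low values, and the median was 0.74 for class II genes, 0.90 for macrophage markers and 0.09 for the interferon-induced genes of the set, whose median was 0.30 over the 9 genes at 1 RPKM or more.

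The class II genes also varied more among the Dio3KO-labelled testes than most genes of like level. All 5 class II genes at 1 RPKM or more had CVs of 0.33 to 0.50 in that group, above the value that 95% of the 6976 genes with average levels of 1 to 10 RPKM stay below, which was 0.24. In WT testes their CVs were 0.20 to 0.38, and 1 of the 5, H2-Ab1, was above the corresponding WT value of 0.31. Among class I genes, B2m, H2-K1 and H2-D1 had CVs of 0.16 to 0.25 in Dio3KO-labelled testes, above the value of 0.12 for genes at 10 to 100 RPKM, and in WT testes H2-D1 was also above its limit (0.17 against 0.16). Of the other 24 genes at 1 RPKM or more in the immunoproteasome, factor and induced subgroups, 0 were above their limit in either group. Some were exactly at it in the rounded CVs: Psmb8 (0.24) and Ifitm3 (0.12) in Dio3KO-labelled testes and Psmb10 (0.16) in WT testes. Of 17 macrophage markers with average levels of at least 1 RPKM, 6 were above their limit in Dio3KO-labelled testes and 2 in WT testes, though none of their CVs in Dio3KO-labelled testes was above 0.25. Among 24 further interferon-induced genes, 1 was above its limit in Dio3KO-labelled testes and 0 in WT testes: Iigp1, with a CV of 0.66 in Dio3KO-labelled testes, wider than that of any class II gene, and 0.31 in WT testes. Other marker lists also held genes above their limit in Dio3KO-labelled testes: 4 of 5 erythroid, 3 of 8 germ cell and 2 of 7 Leydig cell genes. In WT testes these counts were 5, 4 and 2. Of 12 endothelial, 9 Sertoli cell, 3 dendritic cell, 3 hypothalamic neuron and 1 lymphocyte genes, 0 were above it in Dio3KO-labelled testes. Spread differences were not tested.

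**Figure D4:**
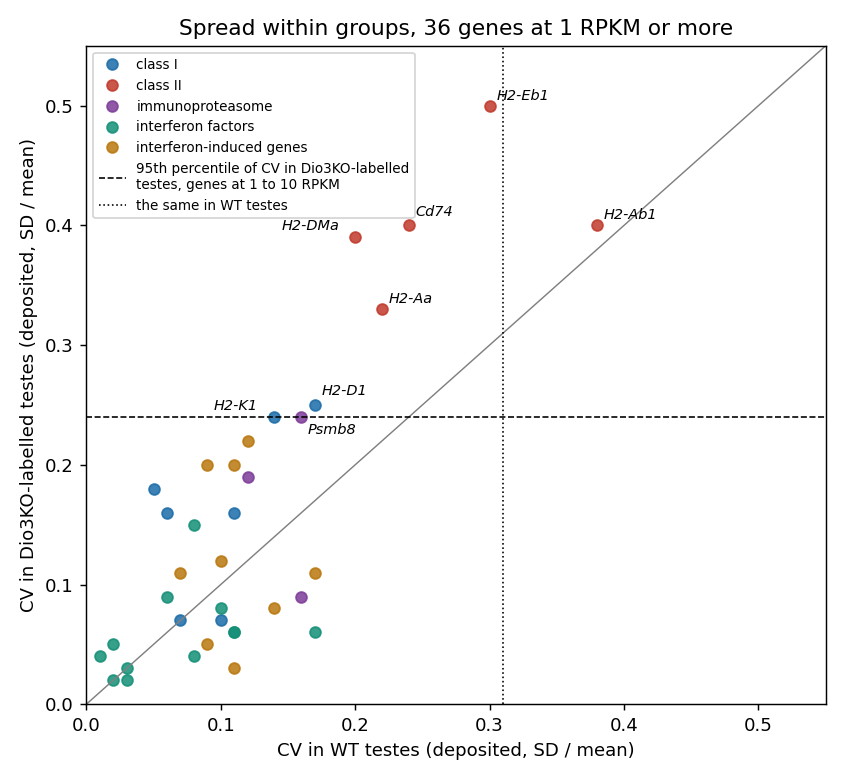
Deposited CVs in Dio3KO-labelled testes (vertical axis) against WT testes (horizontal axis) for the 36 genes at 1 RPKM or more, coloured by subgroup. The grey diagonal marks equal CVs, and the dashed and dotted lines mark the 95th percentiles for genes at 1 to 10 RPKM, 0.24 and 0.31. The 5 class II genes lie above the dashed line.

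The immunoproteasome genes encode catalytic subunits that replace the constitutive ones and change how peptides are cut. Psmb8 rose to 3.16 RPKM (CV 0.24) in Dio3KO-labelled testes, against 1.29 RPKM (CV 0.16) in WT testes, a log2 ratio of 1.03 ± 0.17 (SE, from the CVs), for which the authors' deposited table gave an adjusted p of 0.0464. Psmb9 was at 2.67 RPKM (CV 0.19) in Dio3KO-labelled and 1.53 RPKM (CV 0.12) in WT testes, for which the authors' deposited table gave an adjusted p of 0.0536, and the limma test called it higher at 0.0015. Psmb10 was better expressed, at 15.7 RPKM (CV 0.09) in Dio3KO-labelled testes and 13.4 RPKM (CV 0.16) in WT testes, and did not pass. The log2 ratios were 0.64 ± 0.13 for Psmb9 and 0.22 ± 0.13 for Psmb10 (SE, from the CVs). The constitutive counterparts Psmb5, Psmb6 and Psmb7 were at 64.8, 131 and 156 RPKM in Dio3KO-labelled testes and 76.95, 161 and 177 RPKM in WT testes. None of these 3 passed in the authors' deposited table, and all 3 ratios were below 0, with a median of -0.25, while the limma test called Psmb5 and Psmb6 lower at 0.0152 and 0.0093. In both groups each constitutive subunit was several times above each immunoproteasome subunit.

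Psmb8, Psmb9, Tap1 and Tap2 lie side by side in the histocompatibility region, and 12 of the 43 genes are on chromosome 17. In the GENCODE M21 annotation of GRCm38, the assembly also called mm10, Psmb9 lies on the minus strand from 34181987 to 34187764 and Tap1 on the plus strand from 34187553 to 34197225, so the annotated genes share 212 bases. Reads from those bases may have been counted for either gene, since the strand setting of the counting is not stated. Psmb8 follows from 34197721 to 34201454. Psmb9 and Tap1 start head to head. Promoter windows run from 250 bases before to 50 after the RefSeq starts, which differ from the GENCODE ones. The windows of Psmb9, chr17:34187281-34187580 (minus), and Psmb8 lie inside the GENCODE spans given above. The Psmb9 and Tap1 windows share 275 bases. The windows of Tap1 and Psmb8 are shown because these neighbours, with Psmb9, differed in ratio, with log2 ratios of 0.30 for Tap1, 0.64 for Psmb9 and 1.03 for Psmb8. The sequences are from RefSeq on GRCm38.p6, 5′ to 3′ on the gene's strand, where Tap1 is chr17:34187306-34187605 (plus) and Psmb8 is chr17:34197945-34198244 (plus). Capitals mark matches to motifs of factors known to bind such promoters, searched on both strands: the interferon-stimulated response element as GAAA, any 2 bases and GAAA, the STAT site known as GAS as TTCNNNGAA, and the CCAAT box.
Tap1: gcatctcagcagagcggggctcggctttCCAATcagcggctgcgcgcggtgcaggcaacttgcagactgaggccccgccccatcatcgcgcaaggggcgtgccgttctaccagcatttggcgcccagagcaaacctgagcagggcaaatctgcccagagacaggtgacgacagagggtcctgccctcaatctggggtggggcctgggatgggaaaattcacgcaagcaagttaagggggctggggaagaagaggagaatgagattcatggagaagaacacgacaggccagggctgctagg
Psmb8: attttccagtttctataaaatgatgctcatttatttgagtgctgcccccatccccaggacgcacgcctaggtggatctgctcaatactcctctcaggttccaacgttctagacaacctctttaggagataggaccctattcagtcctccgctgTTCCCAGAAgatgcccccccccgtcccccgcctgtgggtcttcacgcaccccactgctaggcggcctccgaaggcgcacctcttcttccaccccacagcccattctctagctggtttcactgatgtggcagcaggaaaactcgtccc
The window of Tap1 held 1 CCAAT box and no match to the other motifs, and that of Psmb8 held 1 GAS match. The window of Psmb9, not printed because it shares most of its bases with that of Tap1, held the same CCAAT box, read on the other strand, and no match to the others.

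Along the stretch of chromosome 17 from Tapbp to H2-T23 (33915899 to 36032855), the genes of the set stood among others with ratios on both sides of 0. The 12 members there had ratios above 0 and a median log2 ratio of 0.67, 2 of them rising. Of 78 other genes at 1 RPKM or more in the stretch, 8 rose, among them the class I genes H2-K2, H2-Q1 and H2-Q10, and 11 fell, and their median log2 ratio was -0.04. Among all genes at this level in the table, 13.8% rose and 15.8% fell. The largest rise in the stretch was that of H2-Q10, a secreted class I gene, which was at 22.7 RPKM (CV 0.12) in Dio3KO-labelled testes and 5.82 RPKM (CV 0.42) in WT testes, for which the authors' deposited table gave an adjusted p of 0.0041.

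**Figure D5:**
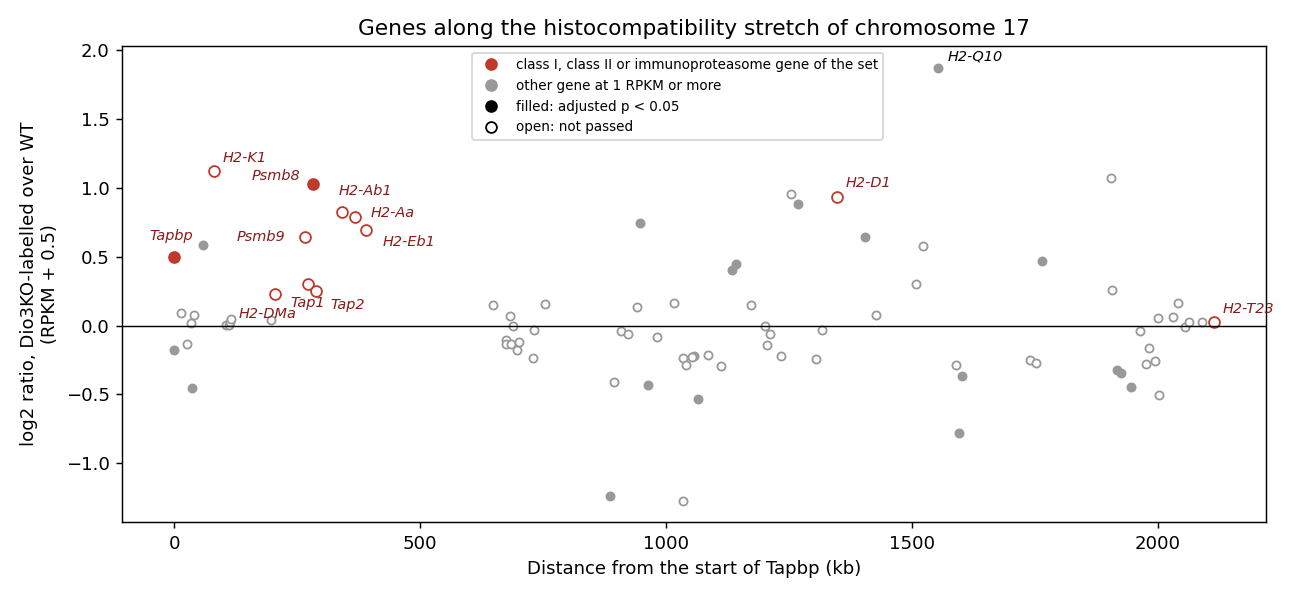
Log2 ratio of each gene at 1 RPKM or more along the histocompatibility stretch, matched by GENCODE symbol, by distance in kb from the start of Tapbp. Red circles are class I, class II and immunoproteasome genes of the set, grey circles are other genes, and filled circles passed the authors' test. The 12 red circles are all above 0, and grey circles lie on both sides of it.

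The class II promoters are known to carry conserved boxes that end in an inverted CCAAT sequence. The window of H2-Aa is shown because this was the best expressed class II chain gene that lies in the region. It covers chr17:34287774-34288073 (minus) and held 1 match to the CCAAT box, in capitals, and none to the other motifs.
H2-Aa: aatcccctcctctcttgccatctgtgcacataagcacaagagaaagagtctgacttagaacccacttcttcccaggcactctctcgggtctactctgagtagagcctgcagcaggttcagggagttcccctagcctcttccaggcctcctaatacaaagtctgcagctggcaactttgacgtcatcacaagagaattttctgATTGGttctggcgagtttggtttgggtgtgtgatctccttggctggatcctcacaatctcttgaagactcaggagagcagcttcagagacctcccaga
The CCAAT box was found in 37.4% of all 32851 RefSeq promoter windows of this length, so a match is common.

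Of the 12 interferon factors, 4 rose, 0 fell and 8 did not pass. Over all genes at this level, 13.8% rose and 15.8% fell. Those that rose were transcription factors. The receptor subunits in the list were only 4, too few at these shares to set them apart from the factors. Irf9, which joins STAT proteins to form the complex that binds interferon response elements, rose to 9.80 RPKM (CV 0.08) in Dio3KO-labelled testes, against 6.60 RPKM (CV 0.10) in WT testes, for which the authors' deposited table gave an adjusted p of 0.0102. Its partner Stat2 rose by little, with 6.18 RPKM (CV 0.02) in Dio3KO-labelled testes and 5.62 RPKM (CV 0.03) in WT testes, a log2 ratio of 0.13 ± 0.02 (SE, from the CVs), for which the authors' deposited table gave an adjusted p of 0.0144. Irf7, which amplifies type I interferon production, rose to 1.81 RPKM (CV 0.06), against 1.08 RPKM (CV 0.17) in WT testes, for which the authors' deposited table gave an adjusted p of 0.0117. Irf8, needed for the development of several myeloid lineages, rose to 4.90 RPKM (CV 0.06), against 3.42 RPKM (CV 0.11) in WT testes, for which the authors' deposited table gave an adjusted p of 0.0119. For Irf7, Irf8 and Irf9 the difference between the means was 3.93 to 4.08 times the larger SD. The log2 ratios were 0.55 ± 0.09 for Irf7, 0.46 ± 0.08 for Irf8 and 0.54 ± 0.09 for Irf9 (SE, from the CVs). All 5 transcripts of Irf7 and all 4 of Irf9 rose.

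The other regulatory factors stayed close to their WT means. Irf1, an activator of class I and immunoproteasome genes, was at 21.4 RPKM (CV 0.06) in Dio3KO-labelled testes and 21.5 RPKM (CV 0.11) in WT testes, for which the authors' deposited table gave an adjusted p of 0.7674. Irf2, known as a counterpart of Irf1, was at 1.95 RPKM in Dio3KO-labelled and 1.94 RPKM in WT testes, and Irf3, which responds to viral nucleic acids, at 18.0 RPKM in Dio3KO-labelled and 19.7 RPKM in WT testes. Irf5, a factor of macrophage inflammatory responses, was at 7.79 RPKM in Dio3KO-labelled and 7.23 RPKM in WT testes without passing, although 2 of its 3 transcripts rose, 1 of them to 4.44 RPKM, against 3.42 RPKM in WT testes.

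The 4 receptor subunits were well expressed, with similar means in both groups, and none passed. The type I receptor chain Ifnar1 was at 42.2 RPKM (CV 0.02) in Dio3KO-labelled testes and 44.2 RPKM (CV 0.02) in WT testes, and its partner Ifnar2 at 24.8 RPKM (CV 0.03) in Dio3KO-labelled and 23.2 RPKM (CV 0.03) in WT testes. Their adjusted p-values of 0.068 and 0.0652 in the authors' deposited table stood just outside the threshold, although 2 further transcripts of Ifnar1 fell, with log2 ratios of -0.08 and -0.07. The interferon gamma receptor chains Ifngr1 (22.9 RPKM in Dio3KO-labelled and 21.7 RPKM in WT testes) and Ifngr2 (79.9 RPKM in Dio3KO-labelled and 81.7 RPKM in WT testes) did not pass. The ratio was -0.03 ± 0.04 for Ifngr2 and -0.07 ± 0.02 for Ifnar1 on the log2 scale (SE, from the CVs). All 4 log2 ratios lay between -0.07 and 0.09, and with the groups rescaled to the same total those of Ifnar1 and Ifngr2 turned to 0.03 and 0.07. The direction for Ifnar1 therefore depends on the scaling.

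The 15 interferon-induced genes went in both directions. Of the 9 at 1 RPKM or more, 4 rose, 2 fell and 3 did not pass. The shares over all genes at this level were 13.8% rising and 15.8% falling. Ifih1 and Ddx58 encode sensors of viral RNA. Ifih1 rose to 2.37 RPKM (CV 0.11) in Dio3KO-labelled testes, against 1.16 RPKM (CV 0.17) in WT testes, a log2 ratio of 0.79 ± 0.11 (SE, from the CVs), for which the authors' deposited table gave an adjusted p of 0.0078. All 4 of its transcripts rose. Ddx58 rose to 3.43 RPKM (CV 0.11), against 2.26 RPKM (CV 0.07) in WT testes, for which the authors' deposited table gave an adjusted p of 0.0262, and 2 of its 5 transcripts rose. The guanylate-binding protein gene Gbp3, a member of a family of antimicrobial GTPases, rose to 4.78 RPKM (CV 0.20), against 2.42 RPKM (CV 0.11) in WT testes, for which the authors' deposited table gave an adjusted p of 0.0455. The log2 ratios were 0.51 ± 0.08 for Ddx58 and 0.85 ± 0.15 for Gbp3 (SE, from the CVs). The paralog Gbp2 was at 3.48 RPKM (CV 0.20) in Dio3KO-labelled and 2.73 RPKM (CV 0.09) in WT testes and did not pass.

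The Ifitm genes, which encode membrane proteins that restrict virus entry, parted in direction. Ifitm3 rose to 34.5 RPKM (CV 0.12) in Dio3KO-labelled testes, against 23.3 RPKM (CV 0.10) in WT testes, for which the authors' deposited table gave an adjusted p of 0.0333. Ifitm2 fell to 99.9 RPKM (CV 0.03), against 138 RPKM (CV 0.11) in WT testes, a log2 ratio of -0.47 ± 0.08 (SE, from the CVs), for which the authors' deposited table gave an adjusted p of 0.044. Ifitm1 was at 15.3 RPKM (CV 0.08) in Dio3KO-labelled and 15.6 RPKM (CV 0.14) in WT testes and did not pass. The log2 ratios were 0.56 ± 0.11 for Ifitm3 and -0.03 ± 0.11 for Ifitm1 (SE, from the CVs). These paralogs are similar in sequence, so reads from one may have been counted for another. Bst2, which encodes tetherin, a protein that holds budding virus particles at the cell surface, fell to 9.26 RPKM (CV 0.05), against 12.3 RPKM (CV 0.09) in WT testes, for which the authors' deposited table gave an adjusted p of 0.0308. Its log2 ratio was -0.39 ± 0.07 (SE, from the CVs).

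Several of the genes most used as signs of an interferon response were barely detected. Isg15, a ubiquitin-like modifier, was at 0.70 RPKM (CV 0.18) in Dio3KO-labelled testes and 0.65 RPKM (CV 0.02) in WT testes. Usp18, which removes Isg15 from proteins, was at 0.69 RPKM in Dio3KO-labelled and 0.62 RPKM in WT testes, and the antiviral enzyme gene Rsad2 had a mean of 0.66 RPKM in both groups with a CV of 0.17 in Dio3KO-labelled and 0.56 in WT testes. Oasl2 was at 0.83 RPKM in Dio3KO-labelled and 0.87 RPKM in WT testes and Ifit1, whose product binds viral RNA, at 0.14 RPKM in Dio3KO-labelled and 0.08 RPKM in WT testes. None of these 5 passed, and at an unknown depth no limit can be set on them. Ifit3 rose to 0.87 RPKM (CV 0.09), against 0.33 RPKM (CV 0.04) in WT testes, for which the authors' deposited table gave an adjusted p of 0.0081. Its log2 ratio was 0.72 ± 0.04 (SE, from the CVs). Ifit2, another member of that family, was at 4.36 RPKM (CV 0.22) in Dio3KO-labelled and 4.40 RPKM (CV 0.12) in WT testes and did not pass.

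The promoter windows of 5 interferon-induced genes are shown because these genes carry the response element yet went in different directions: Ifit3 and Ifitm3 rose, Bst2 and Ifitm2 fell, and Isg15 did not pass. The windows are chr19:34583279-34583578 (plus), chr7:141010695-141010994 (minus), chr8:71537423-71537722 (minus), chr7:140955912-140956211 (minus) and chr4:156200769-156201068 (minus), from RefSeq on GRCm38.p6, with the same 3 motifs in capitals.
Ifit3: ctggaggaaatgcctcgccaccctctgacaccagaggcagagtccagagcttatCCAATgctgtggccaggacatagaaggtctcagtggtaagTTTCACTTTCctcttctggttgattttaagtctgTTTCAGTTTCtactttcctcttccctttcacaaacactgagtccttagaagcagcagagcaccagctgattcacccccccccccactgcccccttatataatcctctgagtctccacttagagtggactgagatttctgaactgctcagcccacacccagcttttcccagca
Ifitm3: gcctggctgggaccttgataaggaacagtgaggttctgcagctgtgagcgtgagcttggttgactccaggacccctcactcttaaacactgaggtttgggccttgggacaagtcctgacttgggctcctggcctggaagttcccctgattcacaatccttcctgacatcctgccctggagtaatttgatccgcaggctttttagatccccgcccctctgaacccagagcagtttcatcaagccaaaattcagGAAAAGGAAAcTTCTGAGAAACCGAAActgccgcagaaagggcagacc
Bst2: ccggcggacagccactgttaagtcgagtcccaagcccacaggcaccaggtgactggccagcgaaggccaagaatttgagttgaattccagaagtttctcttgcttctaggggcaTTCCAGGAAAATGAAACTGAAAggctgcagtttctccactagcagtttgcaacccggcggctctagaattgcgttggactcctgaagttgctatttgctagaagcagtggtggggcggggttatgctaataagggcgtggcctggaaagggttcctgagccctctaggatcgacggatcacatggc
Ifitm2: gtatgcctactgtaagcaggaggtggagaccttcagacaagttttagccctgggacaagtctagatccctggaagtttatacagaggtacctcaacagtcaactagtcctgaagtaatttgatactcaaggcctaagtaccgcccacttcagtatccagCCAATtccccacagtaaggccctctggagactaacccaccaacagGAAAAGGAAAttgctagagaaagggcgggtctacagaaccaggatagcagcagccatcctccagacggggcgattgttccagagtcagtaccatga
Isg15: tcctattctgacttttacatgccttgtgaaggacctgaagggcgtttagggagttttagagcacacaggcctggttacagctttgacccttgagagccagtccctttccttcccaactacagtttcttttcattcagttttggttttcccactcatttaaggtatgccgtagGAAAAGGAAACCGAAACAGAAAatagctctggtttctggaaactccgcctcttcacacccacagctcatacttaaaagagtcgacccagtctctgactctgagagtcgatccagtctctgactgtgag
The interferon-stimulated response element was matched 2 times in Ifit3, 2 times in Ifitm3, 2 times in Bst2, 1 time in Ifitm2 and 3 times in Isg15, and matches that overlap each other were counted separately. In Bst2 and Ifitm3 a match to the GAS motif overlapped a response element.

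Over the set, 38 genes had a RefSeq window and 15 of them held the response element, in 33.3% of their 45 windows, against 3.44% of all windows. The element was found in 6 of the 11 genes that rose when Ifit3 is counted, in both genes that fell, and in Isg15, Ifit1 and Rsad2, which stayed below 1 RPKM. It was also found in B2m, H2-T23, Gbp2 and Irf2, which were at 1 RPKM or more and did not pass. The GAS motif was matched in 9 of the 38 genes, in 20.0% of their windows against 8.30% of all windows. Many of the genes are known targets of interferon, so the share is a description of the list, and a match is not evidence of binding.

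Other genes of the same pathways, 97 in the table, also went in both directions. Of the 72 at 1 RPKM or more, 17 rose, 5 fell and 50 did not pass in the authors' deposited table, with a median log2 ratio of 0.09. The shares over all genes at this level were 13.8% rising and 15.8% falling. Among 10 signalling genes, 3 rose, among them the phosphatase gene Ptpn6, to 3.52 RPKM against 1.64 RPKM in WT testes, and the kinase gene Jak2, to 16.9 RPKM against 13.8 RPKM in WT testes. The deubiquitinase gene Usp9x (103 RPKM in Dio3KO-labelled and 100 RPKM in WT testes) did not pass. Of 11 nucleic acid sensors and adaptors, 5 rose and 0 fell. These were Mavs, the adaptor of Ifih1 and Ddx58, at 17.4 RPKM in Dio3KO-labelled testes and 12.5 RPKM in WT testes, Dhx58 (1.15 RPKM in Dio3KO-labelled and 0.64 RPKM in WT testes), Tlr7 (1.04 RPKM in Dio3KO-labelled and 0.51 RPKM in WT testes), Tlr3 (2.11 RPKM in Dio3KO-labelled and 1.67 RPKM in WT testes) and Myd88 (7.15 RPKM in Dio3KO-labelled and 5.52 RPKM in WT testes), and Tbk1 (14.1 RPKM in Dio3KO-labelled and 13.6 RPKM in WT testes) did not pass.

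Of 27 further interferon-induced genes at 1 RPKM or more, 5 rose and 3 fell, and the limma test called 10 higher and 3 lower. The shares over all genes at this level were 13.8% rising and 15.8% falling, and by limma 18.5% higher and 23.1% lower. Herc6, the gene of a ligase that attaches Isg15 in mice, fell to 1.63 RPKM (CV 0.07), against 2.52 RPKM (CV 0.06) in WT testes, for which the authors' deposited table gave an adjusted p of 0.0045. Xaf1 rose to 11.9 RPKM, against 8.72 RPKM in WT testes, Samhd1, which limits nucleotide supply to viruses, fell to 21.02 RPKM, against 23.7 RPKM in WT testes, and Rnf213 (37.8 RPKM in Dio3KO-labelled and 40.0 RPKM in WT testes) did not pass. Below that level Ifi44l, listed under an older symbol (0.33 RPKM in Dio3KO-labelled and 0.16 RPKM in WT testes), and Ifi44 (0.32 RPKM in Dio3KO-labelled and 0.10 RPKM in WT testes) rose. Among 7 genes of peptide loading, the trimming peptidase Erap1 rose to 25.2 RPKM, against 20.9 RPKM in WT testes, and Calr (331 RPKM in Dio3KO-labelled and 318 RPKM in WT testes) did not pass. Of 5 class II processing genes at 1 RPKM or more, Ctss, a lysosomal protease that cuts the invariant chain, rose to 13.97 RPKM (CV 0.19), against 5.63 RPKM (CV 0.25) in WT testes, and Rfxap, a subunit of the factor that binds class II promoters, fell to 5.93 RPKM, against 7.28 RPKM in WT testes, while Ifi30 (31.2 RPKM in Dio3KO-labelled and 26.2 RPKM in WT testes) did not pass. Ctss is also well expressed in macrophages. Of 9 non-classical class I genes at that level, H2-Q10 and Fcgrt (45.7 RPKM in Dio3KO-labelled and 32.8 RPKM in WT testes) rose, Cd1d1 (4.83 RPKM in Dio3KO-labelled and 6.36 RPKM in WT testes) fell and H2-Q4, listed under an older symbol (23.2 RPKM in Dio3KO-labelled and 24.7 RPKM in WT testes), did not pass.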

How the data were processed

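RNA sequencing of 4 Dio3KO-labelled and 4 WT testes was deposited as 1 table. Per the submitters' processing notes, FastQC, Novoalign 2.08 and mm10 were used, with no role or order. The counting tool, annotation, strand setting and statistical test were not given in the sources used here. Per the file headers, the authors deposited mean RPKM per group, a coefficient of variation per group (a ratio, SD over mean) and an adjusted p-value per transcript. Repeated lines were dropped (147417 lines, 49139 transcripts), and symbols were matched with case ignored. Depth is unknown and 4 samples per group limit the precision. SEs of log2 ratios were computed from the CVs by the delta method. The moderated test used limma 3.58.1 in R 4.3.3 and was tested on simulated data. Variances of log2(RPKM + 0.5) were approximated from the rounded group means and CVs, without values per testis, and shrunk with trend. It had 6 residual degrees of freedom, a CV of 0.00 set to 0.0025 and Benjamini-Hochberg adjustment over all 15821 genes. Named were all members and, from other lists, up to 3 that passed (lowest p first) and the best expressed 1 that did not; others were chosen after their values were seen, and some genes that the rule names are not reported here. Members and lists were chosen with earlier results of these data known.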

Additional observations from a re-analysis of the deposited data

How the results depend on the processing

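Only group means were deposited, so leaving out single replicates was not run. No paired analysis was possible because the columns carry no replicate. No member that passed changed direction under a pseudocount of 0.1 or 1 RPKM, rescaling to equal totals, centring on the median gene or summing transcripts, and the median log2 ratio of the members stayed between 0.26 and 0.39, and was 0.23 with no filter on low values. With the limma test, counts called higher were 17 for all members, 5 for class I, 3 for class II and 2 for the immunoproteasome. At an adjusted p below 0.01, 1 member was higher and 0 lower: 1 interferon-induced gene higher and 0 lower, and 0 higher in class I, the immunoproteasome and the interferon factors, while all genes gave 676 higher and 775 lower. With the transcript of smallest p standing for each gene, 12 members were called higher and 3 lower. Among these, 2 class I genes and 5 interferon factors were higher, and 1 interferon factor was lower. The lower factor was Ifnar1, whose direction depends on the scaling. The cause was not tested.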
